A study of Mus musculus with 18 samples.

Results

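Liver RNA-seq values were examined for 35 genes of the cell cycle and DNA replication, taken from the table by their symbols. All 35 were among the 19057 genes of the table, and 16 of them reached a mean of 1 RPKM over the 18 libraries (RPKM, a read density scaled to transcript length and to the mapped reads of the library). The other 19 members lay below that mean. They included all 12 members that act in S/G2 phase and mitosis, so the test across genes was run on the 16 members above it, together with all other genes at that level.

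D-type cyclins bind the kinases CDK4 and CDK6 in G1 phase, after which E2F factors switch on cyclin E and the genes for DNA replication. Replication origins are licensed when CDC6 and CDT1 load the MCM helicase, and geminin, the product of Gmnn, holds CDT1 in check. Cyclin A, cyclin B and CDK1, followed by Aurora and Polo-like kinases, then drive the cell through mitosis. Most hepatocytes of an adult liver are quiescent, and cyclin D1 is known as a marker of their entry into the cycle when the liver regenerates.

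The mice were male ICR mice of 10 weeks, an outbred stock, with 3 liver libraries in each of 6 groups. Con mice had a regular diet and vehicle, and A10 mice had alginate oligosaccharide (AOS) at 10 mg/kg. HS mice had a high-fat diet and a dose of streptozotocin (STZ), a toxin of pancreatic beta cells. HS+A10 mice had that diet, STZ and AOS at 10 mg/kg, and this group and A10 are known here from the labels alone. A10-FMT and Con-FMT mice had the same diet and STZ and then received gut microbiota, from donors dosed with AOS at 10 mg/kg or from control donors. The transferred material was small intestinal content pooled over donors, so each FMT group stands for a single pool. All groups except Con and A10 therefore share the diet and STZ. Nothing in the labels says that the libraries of a group came from separate mice, so p-values measure the spread between these libraries.

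Several libraries stood apart from the rest of their groups. The third Con library lay between the other 2 Con libraries in 97.9% of the 140 tested genes in which those differed by more than 1 on the log2 scale. The third A10 library did so in 95.6% of 135 genes, whereas the other 16 libraries did so in 4.35% to 74.3% of theirs. The part of this in the spread within Con and A10 was not tested, and calls of members lost without both libraries are given with the comparison. HS replicate 3 had the highest level of all libraries in 22 of the 35 members. In Con-FMT replicate 3 the 12 markers of exocrine pancreas summed to 23056 RPKM, against 14.06 to 50.38 RPKM in the other libraries. HS replicate 2 had the highest sum of the 7 erythroid markers, 10042 RPKM against 876 to 5575 RPKM elsewhere. Liver identity was clear in every library, as 7 of the 8 hepatocyte markers were in the table and above 0 in all, with sums of 49049 to 77926 RPKM. In bulk tissue, fewer cells of a type and less RNA per cell cannot be told apart.

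Promoters are shown for 5 of the 22 members that had their highest level in HS replicate 3. They are picked examples with matches and do not stand for all 22. Of the 35 members, 27 had a promoter in the RefSeq table for GRCm38.p6. Gmnn, Aurkb, Ccne2, Ccnd1, Ccna2, Ccnd2, Mcm4 and Foxm1 had none. The 250 bases before each start site were searched on both strands for the CHR (TTTGAA), the CCAAT box (CCAAT) and an E2F site (TTTGGCGC, TTTCCCGC, TTTCGCGC or TTTGCCGC), with matches allowed to overlap. Each line gives the coding strand from 5′ to 3′, ending at the base before the start site, with matches in capitals.
Cdc20: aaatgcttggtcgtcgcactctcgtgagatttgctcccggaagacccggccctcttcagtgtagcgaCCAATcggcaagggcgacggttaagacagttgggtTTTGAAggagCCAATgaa
Cdk1: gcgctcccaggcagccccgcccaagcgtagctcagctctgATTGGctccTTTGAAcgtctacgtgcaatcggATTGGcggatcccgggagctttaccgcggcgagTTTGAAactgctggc
Top2a: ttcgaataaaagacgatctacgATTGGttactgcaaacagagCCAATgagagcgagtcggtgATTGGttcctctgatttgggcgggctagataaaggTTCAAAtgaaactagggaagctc
Mcm6: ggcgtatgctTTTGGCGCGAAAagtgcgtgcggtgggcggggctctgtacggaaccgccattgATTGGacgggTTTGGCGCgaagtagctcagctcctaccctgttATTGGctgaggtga
Mcm5: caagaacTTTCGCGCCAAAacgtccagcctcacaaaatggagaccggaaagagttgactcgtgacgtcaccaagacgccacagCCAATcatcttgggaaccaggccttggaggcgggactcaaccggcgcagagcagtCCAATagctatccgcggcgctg

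The windows lie at chr4:118437344-118437463 (minus strand) for Cdc20, chr10:69352913-69353032 (minus) for Cdk1, chr11:99024190-99024309 (minus) for Top2a, chr1:128359706-128359825 (minus) for Mcm6 and chr8:75109349-75109508 (plus) for Mcm5. The CHR, which is known as an element of late cell cycle promoters, was found in 5 of 10 mitotic members with a promoter and in 1 of 17 other members. Over all 27025 genes of the table its share was 18.3%. Cdc20, Cdk1 and Top2a, shown above, each hold a CHR, whereas Plk1, Ccnb1, Aurka and Bub1, highest in the same library, had none. A CCAAT box was found in 9 of the 10 mitotic members, in 10 of the 17 other members, among them 5 of 5 Mcm members, and in 37.5% of all genes. The E2F letters were found in 3 of 5 Mcm members and in 2.16% of all genes. Mcm2 and Mcm3, also highest in that library, had no E2F match. In Mcm6 and Mcm5 the long run of capitals holds 2 E2F matches, 1 on each strand, that overlap. These matches are counts of letters in a window and say nothing about binding.

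The 35 members ranged from 0.035 to 25.5 RPKM in mean level. Cdk4 had the highest mean over the 18 libraries (25.5 RPKM), followed by Ccnd3 (20.8 RPKM) and Pcna (17.6 RPKM), the sliding clamp of DNA polymerases. Cdk4 and Ccnd3 overlapped in their values, as did Ccnd3 and Pcna. Ccnd1, Mcm7, Tyms, Cdk2, Gmnn and Rrm1 followed at means of 2.41 to 5.54 RPKM. At the low end Bub1, a spindle checkpoint kinase, had a mean of 0.035 RPKM and only 6 distinct values among its 18 libraries. The number of reads behind a value is unknown, and levels below 1 RPKM rest on few steps of the 2 decimals deposited.

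**Figure D1:**
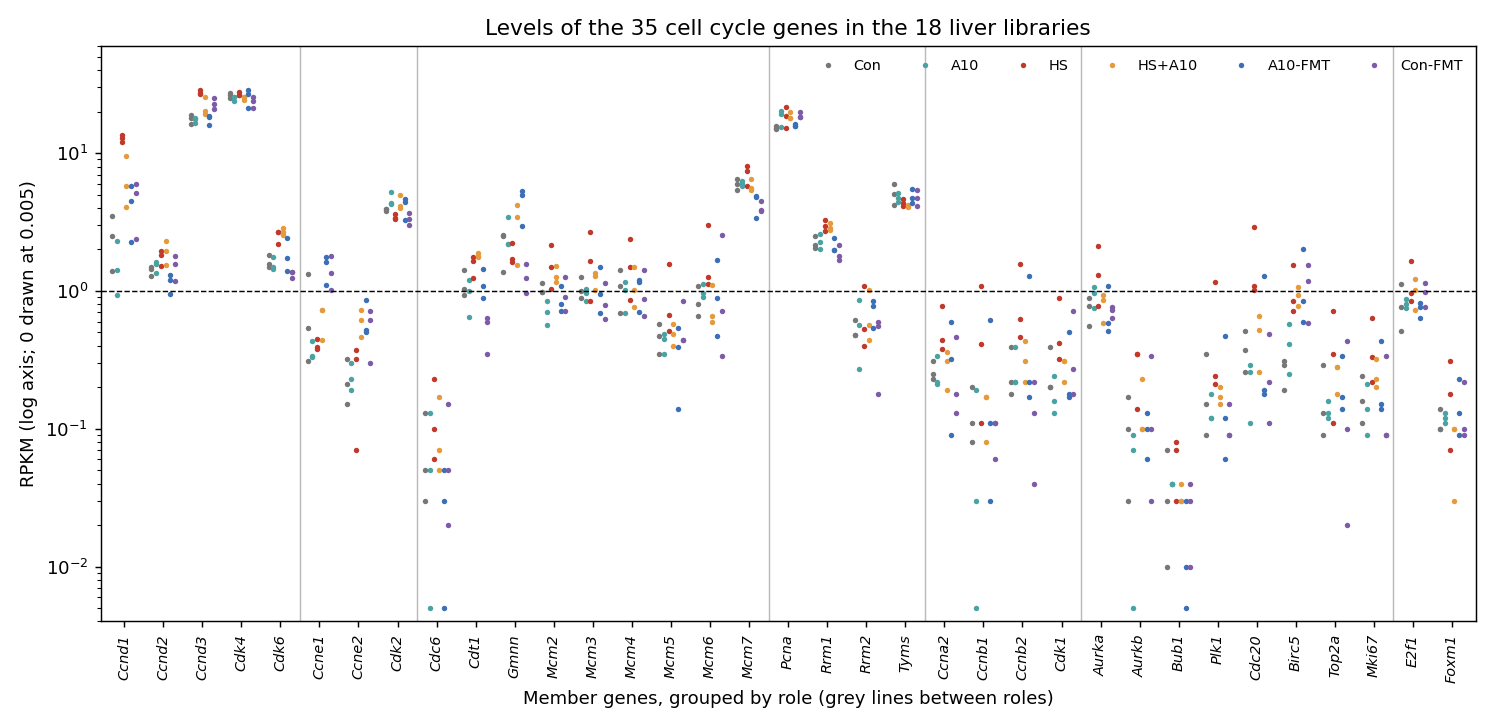
Each point is the RPKM of 1 library (log axis, 0 drawn at 0.005) for the 35 members, grouped by role and coloured by group. The dashed line marks 1 RPKM, above which the D-type cyclins, Cdk4, Pcna, Mcm7, Rrm1 and Tyms lie with nearly all their points, while the mitotic members lie mostly below it.

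Ccnd1 had the largest difference between HS and Con among the tested members. Ccnd1 encodes cyclin D1 (chr7:144929931-144939925, minus strand, GRCm38), the cyclin that hepatocytes raise on leaving quiescence. Its levels were 3.49, 1.39 and 2.5 RPKM in Con and 12.13, 13.53 and 12.94 RPKM in HS. The lowest HS library was above the highest Con library by more than 3-fold, and the 3 HS libraries lay close together. The means were 2.46 ± 1.05 RPKM in Con and 12.9 ± 0.703 RPKM in HS (SD, n = 3), a ratio of 5.23. On the log2(RPKM + 1) scale used for all tests, Ccnd1 rose by 2.05 (SE 0.33, adjusted p = 0.00136).

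Ccnd1 was also higher where AOS was given on both sides of the comparison. It had 0.93, 2.29 and 1.42 RPKM in A10 and 4.08, 5.75 and 9.47 RPKM in HS+A10, again without overlap. The increase was 1.52 (SE 0.33, adjusted p = 0.00501). The difference between these 2 increases was -0.53 with a 95% interval of -1.53 to 0.47 (adjusted p = 0.668), so an unequal effect of the diet and STZ with AOS was not detected at 3 libraries per group.

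In both groups of microbiota recipients Ccnd1 decreased compared to HS. It had 5.79, 2.27 and 4.48 RPKM in A10-FMT and 5.10, 5.94 and 2.37 RPKM in Con-FMT, so all 6 libraries were below the HS libraries. The changes were -1.48 (adjusted p = 0.0068) and -1.41 (adjusted p = 0.00741), and these comparisons share the 3 HS libraries. Between the recipient groups the difference was -0.08 with an interval of -0.78 to 0.63. HS+A10 was at 6.43 ± 2.76 RPKM (SD, n = 3), below HS in every library, but this comparison did not pass the test (-0.96, adjusted p = 0.0876).

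The exons of Ccnd1 share 818 of 3740 bases with LTO1 on the opposite strand, and use of strand in counting is not stated, so reads from this stretch cannot be told apart. LTO1 changed by 0.42 in HS compared to Con (adjusted p = 0.0127) and by -0.02 in A10-FMT compared to HS (adjusted p = 0.927). Its means were 4.93 RPKM in Con, 6.91 RPKM in HS and 6.91 RPKM in A10-FMT. LTO1 was also called higher in HS+A10 than A10 (0.36, adjusted p = 0.0198) and was not called in Con-FMT compared to HS (-0.05, adjusted p = 0.731). The part of shared reads in the values of Ccnd1 was not tested.

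Ccnd3, which encodes cyclin D3, was the other D-type cyclin called higher in HS (chr17:47505051-47599691, plus strand). It had 16.37, 18.85 and 17.94 RPKM in Con and 28.81, 27.19 and 27.00 RPKM in HS. The groups did not overlap, and the increase was 0.62 (SE 0.10, adjusted p = 0.00127), or 1.56-fold in RPKM. In A10-FMT it had 18.29, 18.70 and 16.01 RPKM, within or just below the Con range, a decrease of 0.62 compared to HS (adjusted p = 0.00111).

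Con-FMT held an intermediate level of Ccnd3. Its libraries had 22.81, 25.03 and 21.01 RPKM, all below HS, but the change of -0.26 missed the threshold (adjusted p = 0.0668). The recipient groups differed from each other by -0.36 (adjusted p = 0.0202), with A10-FMT the lower in 3 of 3 libraries. This call was lost when each library was centred on its median (-0.29, adjusted p = 0.0553), without A10-FMT replicate 3 (adjusted p = 0.0772) and without Con-FMT replicate 2 (adjusted p = 0.0784).

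Ccnd3 was the single member called between HS+A10 and HS. It had 25.51, 20.10 and 19.27 RPKM in HS+A10, a decrease of 0.35 compared to HS (adjusted p = 0.0451). The call lies next to the threshold and was lost without the third Con and A10 libraries (adjusted p = 0.083) and without any one of 12 of the 18 libraries. In A10 the gene had 17.77, 17.92 and 16.61 RPKM, and HS+A10 was above that by 0.29 (adjusted p = 0.0521). Ccnd3 shares 361 of 2447 exonic bases with Bysl on the opposite strand, which was itself called lower in HS+A10 than HS (-0.35, adjusted p = 0.0318), in A10-FMT than HS (-0.34, adjusted p = 0.0157) and in A10-FMT than Con-FMT (-0.55, adjusted p = 0.000914). The part of shared reads in the values of Ccnd3 was not tested.

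Ccnd2, the cyclin D2 gene, stayed in a narrow range. It had 1.28 to 1.49 RPKM in Con, 1.35 to 1.62 in A10, 1.52 to 1.94 in HS, 1.55 to 2.31 in HS+A10 and 1.19 to 1.80 in Con-FMT. A10-FMT was lowest, with 1.30, 0.95 and 1.21 RPKM, and was called lower than HS (-0.36, adjusted p = 0.0347). The call was lost without any one of HS replicates 2 and 3 and A10-FMT replicates 2 and 3 (adjusted p = 0.0697 to 0.131), and without the third Con and A10 libraries (adjusted p = 0.0587).

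The kinase partners of these cyclins behaved differently from each other. Cdk6 had 1.82, 1.49 and 1.58 RPKM in Con and 2.67, 2.2 and 2.69 RPKM in HS, an increase of 0.42 (adjusted p = 0.0202). It had 1.44, 1.49 and 1.75 RPKM in A10 and 2.69, 2.54 and 2.86 RPKM in HS+A10, an increase of 0.53 (adjusted p = 0.00391). Both pairs of groups were free of overlap. In Con-FMT it had 1.25, 1.37 and 1.37 RPKM, a decrease of 0.59 compared to HS (adjusted p = 0.00196). In A10-FMT it had 2.44, 1.39 and 1.72 RPKM, and the change of -0.32 just missed the threshold (adjusted p = 0.0516). The call in HS compared to Con was lost without any one of Con replicates 2 and 3 and HS replicates 1 and 3 (adjusted p = 0.0537 to 0.063).

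Cdk4 was called in no comparison. Its libraries lay between 21.37 and 28.91 RPKM, with group means of 23.7 to 26.9 RPKM. The difference of HS from Con was 0.03 with a 95% interval of -0.17 to 0.23, which leaves out a change of the size seen for Ccnd3. Cdk4 shares 641 of 2053 exonic bases with Tspan31 on the opposite strand, which had means of 188 RPKM in Con and 255 RPKM in HS.

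**Figure D2:**
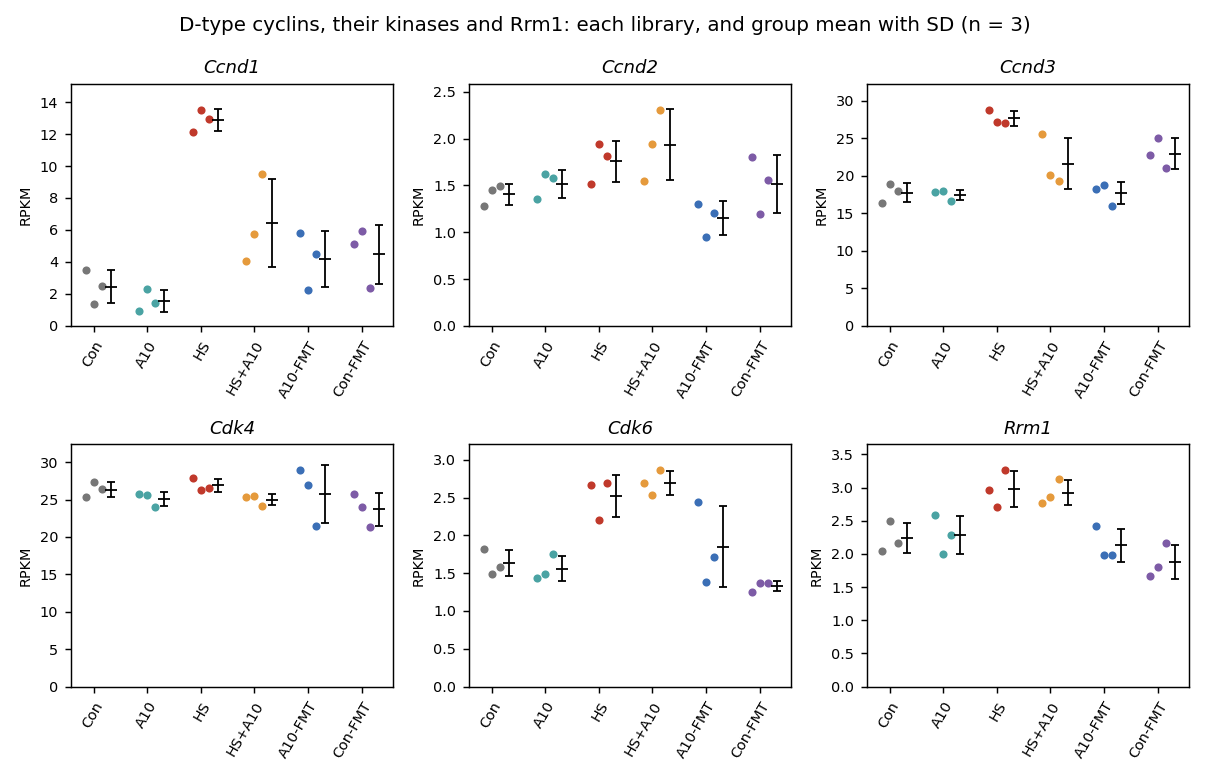
Coloured points are single libraries (RPKM, linear axes from 0) and black marks are group means with SD (n = 3) for Ccnd1, Ccnd2, Ccnd3, Cdk4, Cdk6 and Rrm1. The 3 HS libraries of Ccnd1 sit between 12.13 and 13.53 RPKM, above all 15 other libraries, while Cdk4 is level across groups.

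Of the 16 tested members 4 (25.0%) were higher in HS than Con and none was lower, against 17.7% of all 10204 tested genes called (15.9% higher and 1.87% lower). These were Ccnd1, Ccnd3, Cdk6 and Rrm1, which encodes the large subunit of ribonucleotide reductase. Without HS replicate 3, and without the third Con and A10 libraries, 2 were called, Ccnd1 and Ccnd3. Between HS+A10 and A10, 4 were higher and none lower, against 20.9% of all genes (13.6% higher and 7.28% lower). These were Ccnd1, Cdk6, Cdt1 and Mcm2, of which Ccnd1, Cdk6 and Cdt1 were called without the third Con and A10 libraries. Ccnd1 and Cdk6 were called in both comparisons, which share no library. The sign was equal in 12 of 16 members (75%), compared with 69.9% of all tested genes.

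Markers of other cell types differed between some of the same groups. The 6 stellate cell markers, all above 0 in every library, summed to 80.7 to 91.6 RPKM in Con and 126 to 197 RPKM in HS, and to 89.6 to 98.8 RPKM in A10 and 127 to 143 RPKM in HS+A10. They summed to 98.3 to 124 RPKM in A10-FMT and 98.8 to 115 RPKM in Con-FMT, below HS and above Con. The 7 erythroid markers summed to 1256 to 1972 RPKM in Con and 2887 to 10042 RPKM in HS, and to 1136 to 2050 RPKM in A10-FMT. Their sums overlapped between A10 (2113 to 2743 RPKM) and HS+A10 (2108 to 3259 RPKM). Con-FMT, at 876 to 3620 RPKM, overlapped with both Con and HS. Hba-a1 made up most of the erythroid sum in each library. Alas2 had 113.93 to 121.08 RPKM in Con and 78.93 to 125.06 RPKM in HS, while the other erythroid markers had higher means in HS. Dcn made up most of the stellate sum, and Col1a1 and Col3a1 overlapped between Con and HS. The part of these cells in the changes of the members was not tested.

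Recipients of microbiota had more members below HS. In A10-FMT 6 members were lower and 1 higher than in HS, which is 43.8% of those tested against 23.1% of all genes (2.09% higher and 21.0% lower). The lower ones were Ccnd1, Ccnd2, Ccnd3, Mcm2, Mcm7 and Rrm1, and the higher one was Gmnn. Mcm2 reached the limit for testing only through its level in HS (mean without HS 0.977 RPKM), the group it was called against, and 5 members were lower when it is not counted. Without HS replicate 3, or without A10-FMT replicate 2, 3 were called, Ccnd1, Ccnd3 and Mcm7. Without the third Con and A10 libraries the calls of Ccnd2 (adjusted p = 0.0587) and Mcm2 (adjusted p = 0.0617) were lost. In Con-FMT 5 members (Ccnd1, Cdk6, Cdt1, Mcm7 and Rrm1) were lower than in HS, against 23.6% of all genes (4.61% higher and 19.0% lower), and the same 5 were called without Con-FMT replicate 3.

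In the groups whose labels differ only in AOS or in the donor, the calls were as follows. No member was called between A10 and Con with limma, where 0.0686% of all genes were, and 1 member (Pcna) had an unadjusted p under 0.05. Between HS+A10 and HS only Ccnd3 was called, against 7.32% of all genes (2.95% higher and 4.37% lower). These 2 groups also stood apart in Dbp, a clock output gene, at 47.26 to 97.45 RPKM in HS+A10 and 1.17 to 2.22 RPKM in HS. The part of the clock in this comparison was not tested. Between A10-FMT and Con-FMT Gmnn and Cdt1 were higher and Ccnd3 was lower, which is 18.8% of the members and also 18.8% of all genes (686 higher and 1228 lower). No member was called for an unequal effect of diet and STZ with AOS, as for 0.00980% of all genes, and 1 (Ccnd3) had an unadjusted p under 0.05. By the F test over the 6 groups 10 of 16 members differed, against 56.1% of all genes.

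The scale of the values bears on these counts, since the median change of all tested genes was 0.14 in HS compared to Con. Compared to HS it was -0.16 for the A10-FMT group and -0.12 for the Con-FMT group. The median of the 16 members was 0.28, -0.33 and -0.36 in the same order. When each library was centred on its median, HS against Con turned from 1618 genes higher and 191 lower to 398 and 486, and Ccnd1 (1.89) and Ccnd3 (0.44) were called higher and Tyms lower. A10-FMT against HS turned from 213 and 2145 to 639 and 516, with Ccnd1 (-1.32), Ccnd3 (-0.44) and Mcm7 (-0.42) called lower and Gmnn (1.03) higher. Con-FMT against HS turned from 470 and 1943 to 858 and 1240, and the 5 members named above were called again. HS+A10 against A10 turned from 1388 and 743 to 1243 and 1151, and A10-FMT against Con-FMT from 686 and 1228 to 1302 and 958, with Gmnn, Cdt1 and also Cdk6 called higher. HS+A10 against HS turned from 301 and 446 to 579 and 356, with no member called.

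**Figure D3:**
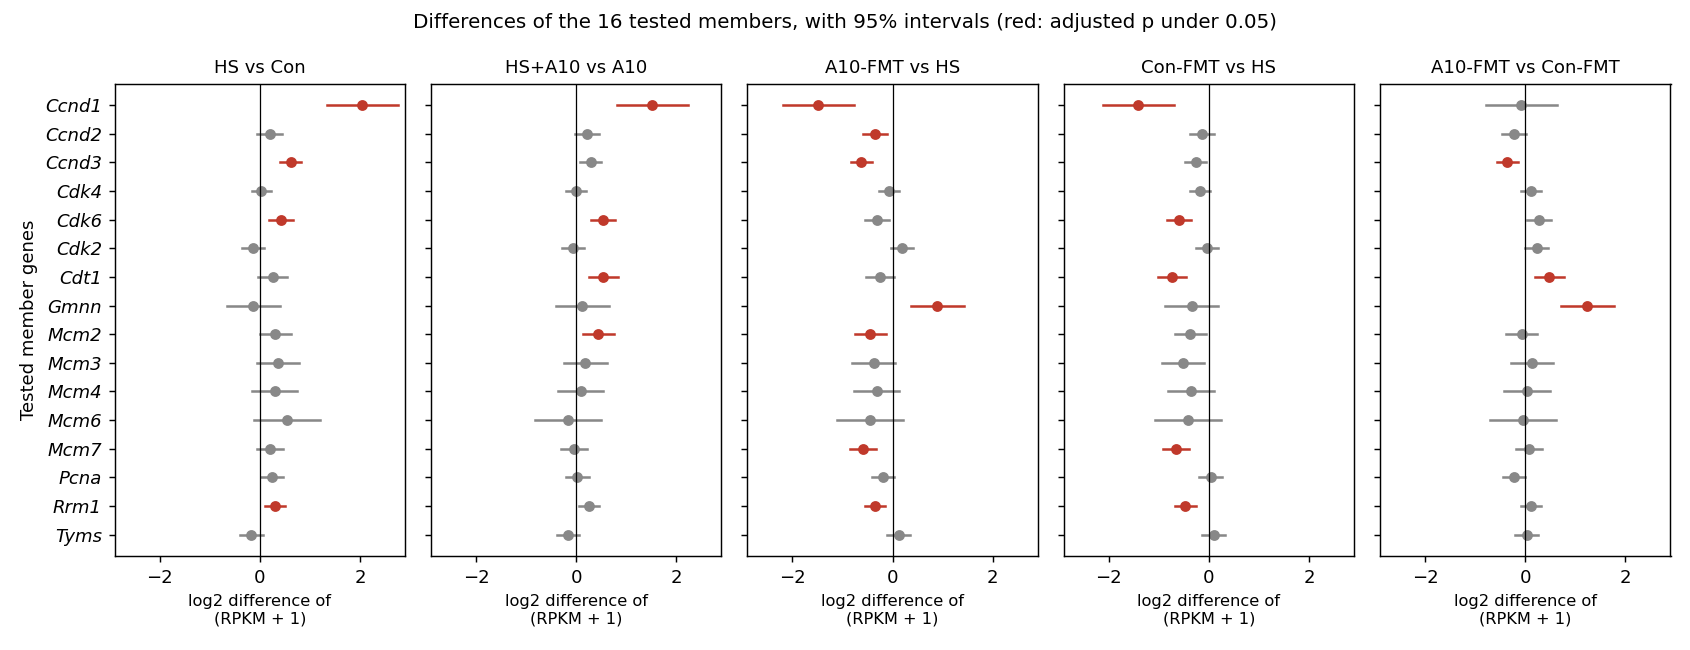
Points are log2 differences of RPKM + 1 for the 16 tested members in 5 comparisons, bars are 95% intervals from the fit of all 18 libraries, and red marks an adjusted p under 0.05. Ccnd1 lies farthest to the right in HS vs Con (2.05) and farthest to the left in both recipient groups vs HS, and Gmnn lies to the right in A10-FMT vs Con-FMT (1.24).

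Among the genes of the G1/S step, the E-type cyclins had another pattern than the D-type cyclins. Ccne1 had 1.32, 0.31 and 0.54 RPKM in Con, 0.34, 0.33 and 0.43 RPKM in A10, and 0.45, 0.38 and 0.39 RPKM in HS. It had 1.76, 1.11 and 1.63 RPKM in A10-FMT and 1.80, 1.36 and 1.02 RPKM in Con-FMT, above every HS library. HS+A10 lay between, with 0.73, 0.44 and 0.73 RPKM. Its mean of 0.837 RPKM was under the limit for testing, so the test without that limit is given, in which Ccne1 rose by 0.82 in A10-FMT (adjusted p = 0.00898) and by 0.75 in the Con-FMT libraries (adjusted p = 0.0114), each against HS. In that test 12.5% and 14.1% of all 17837 genes above 0 were called.

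Ccne2, the cyclin E2 gene, was similar in the sense of its changes but was called in no single comparison without the limit on level. In that fit Ccne2 passed the F test over the 6 groups (adjusted p = 0.0199), as 34.1% of all genes did. It had 0.07 to 0.37 RPKM over the 9 libraries of Con, A10 and HS, 0.46 to 0.73 RPKM in HS+A10, 0.50 to 0.86 RPKM in A10-FMT, while Con-FMT had 0.30 to 0.72 RPKM. The difference of A10-FMT from HS was 0.38 (adjusted p = 0.0504). Ccne2 shares 336 of 3200 exonic bases with Ints8 on the opposite strand. Cdk2, the partner kinase of cyclin E, had 3.83 to 3.93 RPKM in Con, 4.28 to 5.19 in A10, 3.35 to 3.61 in HS, 3.98 to 4.98 in HS+A10, 3.26 to 4.67 in A10-FMT, while Con-FMT had 3.02 to 3.67 RPKM. It passed the F test but no single comparison.

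Of the licensing genes, Gmnn gave the clearest difference between the recipient groups. Gmnn (chr13:24751845-24761923, minus strand) had 4.95, 5.29 and 2.95 RPKM in A10-FMT and 0.96, 1.58 and 1.24 RPKM in Con-FMT. Every A10-FMT library was above every Con-FMT library, with means of 4.40 ± 1.26 and 1.26 ± 0.310 RPKM (SD, n = 3), a ratio of 3.49. The difference was 1.24 (SE 0.25, adjusted p = 0.00333). The library with 2.95 RPKM was near the levels of Con (1.38, 2.56 and 2.52 RPKM), A10 (3.46, 2.19 and 2.2 RPKM) and HS (2.21, 1.63 and 1.71 RPKM). HS+A10 spread from 1.55 to 4.22 RPKM.

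Compared to HS, Gmnn rose by 0.90 in A10-FMT (adjusted p = 0.019), and this call was lost without any one of A10-FMT replicate 2 and HS replicates 2 and 3 (adjusted p = 0.0562 to 0.0765). In Con-FMT the difference from HS was -0.34 (adjusted p = 0.346). The higher level of A10-FMT over Con-FMT was called in every alternative tried except at the limits of the paper (adjusted p up to 0.0203).

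Cdt1, the licensing factor that geminin binds, moved in the same direction between the recipient groups. It had 1.44, 0.89 and 1.09 RPKM in A10-FMT and 0.35, 0.60 and 0.64 RPKM in Con-FMT, a difference of 0.48 (adjusted p = 0.0206), which was not called without A10-FMT replicate 1 or without Con-FMT replicate 1 (adjusted p = 0.083 in both). Con-FMT was the lowest of the 6 groups. It was below HS, with 1.75, 1.64 and 1.24 RPKM, by 0.73 (adjusted p = 0.00149). HS+A10 was the highest, with 1.80, 1.90 and 1.76 RPKM, against 1.20, 0.65 and 1.00 RPKM in A10, an increase of 0.54 (adjusted p = 0.00985) that was lost without A10 replicate 2 (adjusted p = 0.0568). Con had 1.43, 0.93 and 1.04 RPKM. Cdc6, the other loading factor, had at most 0.23 RPKM and was at 0 in 2 libraries.

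The 6 Mcm genes encode the subunits of the replicative helicase. Mcm7 had the highest levels, 6.48, 5.93 and 5.43 RPKM in Con and 7.36, 5.74 and 8.01 RPKM in HS, which overlapped. It had 4.88, 4.78 and 3.41 RPKM in A10-FMT and 3.90, 3.83 and 4.49 RPKM in Con-FMT. All 6 recipient libraries were below all HS and Con libraries, and the decreases compared to HS were 0.59 (adjusted p = 0.00446) and 0.66 (adjusted p = 0.00163). In A10 and HS+A10 the gene had 5.37 to 6.49 RPKM. Mcm7 shares 321 of 2962 exonic bases with Ap4m1 and 64 with Cops6 on the opposite strand. Cops6 was lower in A10-FMT than HS as well (-0.35, adjusted p = 0.0221), and Ap4m1 was not (0.03, adjusted p = 0.851). In Con-FMT neither was called (-0.13 and -0.24).

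Mcm2 had 0.98, 0.99 and 1.15 RPKM in Con, 0.85, 0.70 and 0.57 RPKM in A10, 1.49, 1.03 and 2.17 RPKM in HS and 1.17, 1.27 and 1.51 RPKM in HS+A10. It was called higher in HS+A10 than A10 (0.44, adjusted p = 0.0437) but not in HS than Con (0.31, adjusted p = 0.15). In A10-FMT it had 1.08, 0.71 and 0.80 RPKM, which overlapped with HS although it was called (-0.44, adjusted p = 0.0409). With no limit on level that call was lost (adjusted p = 0.0573), and so was the call in HS+A10 (adjusted p = 0.0595). In Con-FMT it had 0.71, 1.27 and 0.90 RPKM. The first call was lost in most alternatives (without the third Con and A10 libraries, adjusted p = 0.17), and so was the second (without HS replicate 3, adjusted p = 0.177).

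Mcm3, Mcm4 and Mcm6 were tested and called in no comparison, and Mcm5 had a mean of 0.539 RPKM. The mean of HS was above that of Con in 6 of 6 Mcm genes and 1 of them, Mcm6, did not overlap, while 23.0% of all 17837 genes above 0 were higher in HS without overlap. The highest of the 18 libraries was HS replicate 3 in 6 of 6. The Mcm genes summed to 13.78, 10.25 and 19.83 RPKM in HS and to 10.28, 10.83 and 10.16 RPKM in Con, so HS replicate 2 was no higher than Con.

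**Figure D4:**
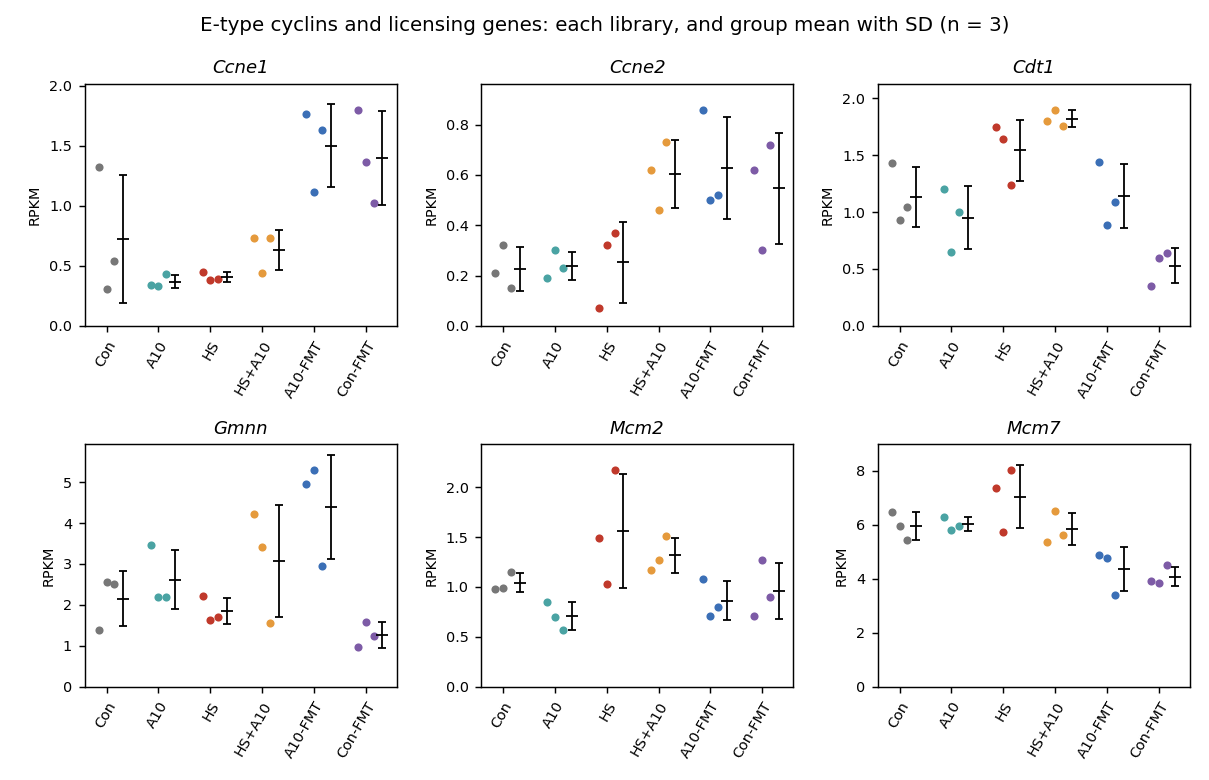
Coloured points are single libraries (RPKM, linear axes from 0) and black marks are group means with SD (n = 3) for Ccne1, Ccne2, Cdt1, Gmnn, Mcm2 and Mcm7. Ccne1 is at 1.02 RPKM or more in all 6 recipient libraries, Mcm7 is at 4.88 RPKM or less in the same libraries, and Gmnn and Cdt1 separate A10-FMT from Con-FMT.

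The clamp and the enzymes that supply nucleotides changed little. Rrm1 had 2.05, 2.5 and 2.17 RPKM in Con and 2.97, 2.71 and 3.26 RPKM in HS, an increase of 0.30 (adjusted p = 0.0424), which was lost without any one of 8 libraries, among them every HS library (adjusted p = 0.05 to 0.148). It had 2.42, 1.98 and 1.99 RPKM in A10-FMT and 1.67, 1.80 and 2.17 RPKM in Con-FMT, decreases of 0.35 (adjusted p = 0.0179) and 0.47 (adjusted p = 0.00303) from HS. The first was lost without any one of HS replicate 3 and A10-FMT replicates 2 and 3 (adjusted p = 0.0665 to 0.0713). In A10 it had 2.58, 2.00 and 2.28 RPKM and in HS+A10 2.77, 2.86 and 3.13 RPKM, a difference of 0.26 (adjusted p = 0.0675). Rrm2, the small subunit that cells make in S phase, had a mean of 0.601 RPKM and libraries between 0.18 and 1.09 RPKM.

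Pcna had 15.11, 15.04 and 15.63 RPKM in Con, 15.35, 18.46 and 21.52 RPKM in HS, 15.82, 15.87 and 16.17 RPKM in A10-FMT and 18.20, 18.16 and 19.92 RPKM in Con-FMT. In A10 it had 20.16, 15.59 and 19.26 RPKM and in HS+A10 17.97, 17.98 and 19.79 RPKM. The widest spread was within HS, and no comparison was called (HS against Con 0.25, adjusted p = 0.11). Tyms, thymidylate synthase, lay between 4.10 and 6.02 RPKM over all libraries, with a difference of -0.17 between HS and Con (interval -0.40 to 0.05).

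The 12 members of S/G2 phase and mitosis were all under the limit for testing, and their values are a description. Mki67, the proliferation antigen Ki-67, had 0.24, 0.11 and 0.16 RPKM in Con and 0.22, 0.33 and 0.64 RPKM in HS. It had 0.09, 0.21 and 0.14 RPKM in A10, 0.23, 0.20 and 0.32 RPKM in HS+A10, 0.43, 0.15 and 0.14 RPKM in A10-FMT and 0.09, 0.34 and 0.09 RPKM in Con-FMT. Only A10 and HS were free of overlap, with 0.21 against 0.22 RPKM at their nearest, and no library reached 1 RPKM.

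Top2a, the topoisomerase that untangles chromosomes, had 0.29, 0.09 and 0.13 RPKM in Con and 0.11, 0.35 and 0.72 RPKM in HS. Over the other 4 groups it lay between 0.02 and 0.43 RPKM. Cdk1, the mitotic kinase, had 0.39, 0.20 and 0.20 RPKM in Con and 0.32, 0.42 and 0.89 RPKM in HS, and 0.13 to 0.72 RPKM elsewhere. In both genes HS replicate 3 was the highest library, and at least 1 HS library lay within the Con range.

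Cdc20, an activator of the anaphase-promoting complex, had the highest HS mean of these genes, 1.67 RPKM. It had 0.51, 0.26 and 0.37 RPKM in Con and 1.02, 1.08 and 2.91 RPKM in HS, without overlap. A10 had 0.11, 0.29 and 0.26 RPKM. HS+A10 had 0.26, 0.52 and 0.66 RPKM and Con-FMT 0.22, 0.49 and 0.11 RPKM, all below HS. A10-FMT had 1.28, 0.19 and 0.18 RPKM, with 1 library above 2 of the HS libraries. Without the limit on level Cdc20 was called higher in HS than Con (0.89, adjusted p = 0.0467, against 9.46% of all genes) and lower in Con-FMT than HS (-1.01, adjusted p = 0.02). The first of these was not called without the third Con and A10 libraries.

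Birc5, which encodes survivin, differed from the other mitotic genes in which groups were high. It had 0.31, 0.29 and 0.19 RPKM in Con and 0.58, 0.25 and 0.41 RPKM in A10, against 0.72, 0.85 and 1.54 RPKM in HS. The other diabetic groups stayed up too, at 0.94, 0.78 and 1.06 RPKM in HS+A10, 2.00, 0.84 and 0.60 RPKM in A10-FMT and 0.59, 1.19 and 1.54 RPKM in Con-FMT. All 12 libraries with diet and STZ were above all 6 without, though the nearest values were 0.59 RPKM in Con-FMT and 0.58 RPKM in A10. Without the limit on level no single comparison of Birc5 was called (HS against Con 0.67, adjusted p = 0.0668), while it passed the F test (adjusted p = 0.0446), as 34.1% of all genes did.

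Across the 12 genes the mean of HS was above that of Con in 12, and 4 did not overlap, to be set against the 23.0% of all genes given above. Without HS replicate 3 the mean was still above in 12 of 12, and 4 were free of overlap. With fewer HS libraries groups separate more easily, and the share of all genes for that case was not computed. The sum over the 12 genes was 4.73, 6.24 and 13.83 RPKM in HS and 3.90, 2.23 and 2.81 RPKM in Con. All 3 HS libraries were above all Con libraries, and 1 HS library held most of the difference. The mean of HS+A10 was below HS in 12 of 12, and in 10 of 12 without HS replicate 3. In A10-FMT it was below in 11 of 12, in 10 of 12 without HS replicate 3, and in 12 of 12 without A10-FMT replicate 1. In Con-FMT it was below in 11 of 12, and in 10 of 12 without HS replicate 3. The median of all tested genes shifted in the same directions, with a change of 0.14 in HS compared to Con, while single genes moved both ways. Compared to HS their median change was -0.03 in HS+A10, -0.16 in A10-FMT and -0.12 in Con-FMT.

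**Figure D5:**
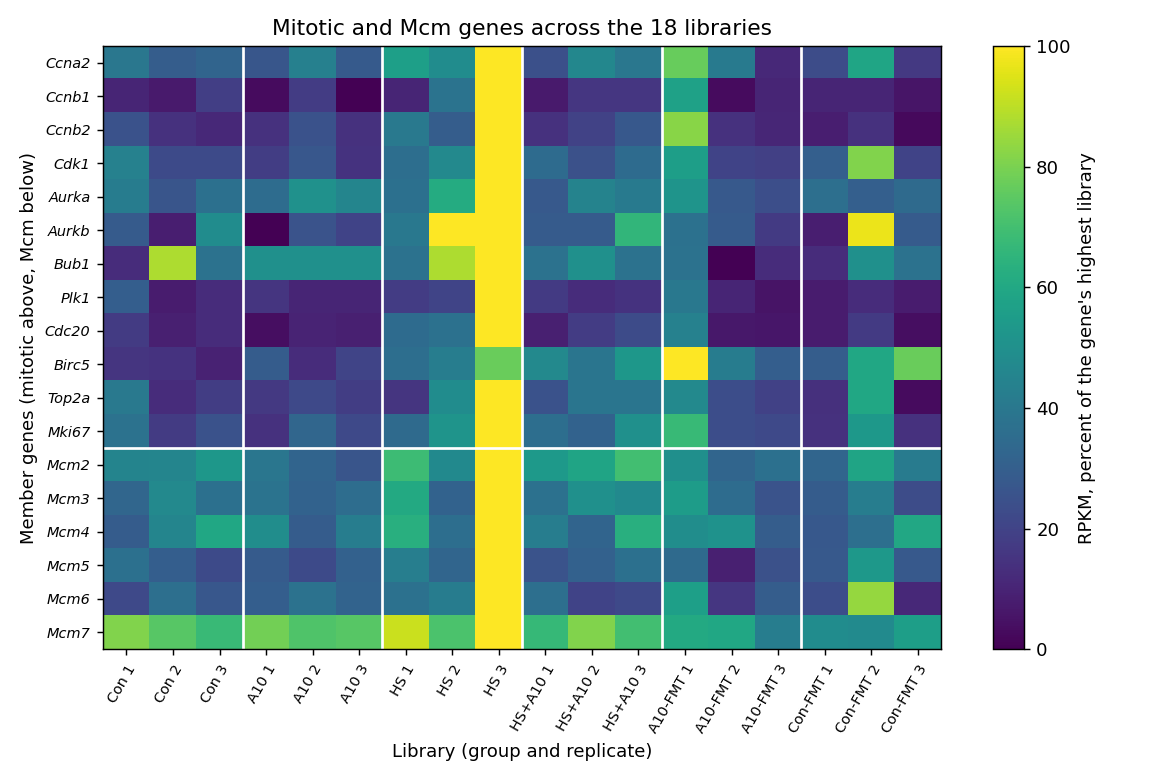
Rows are the 12 mitotic members and the 6 Mcm genes, columns are the 18 libraries, and colour is the RPKM as percent of the highest library of that gene. The column of HS replicate 3 is at or near 100 in nearly all rows, and A10-FMT replicate 1 and Con-FMT replicate 2 are the brightest columns of their groups for the mitotic genes.

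The mitotic genes tended to be high in the same libraries. HS replicate 3 had the highest level of all libraries in 10 of 12 (in Aurkb it was equal to HS replicate 2) and Birc5 was highest in A10-FMT replicate 1. Within its group A10-FMT replicate 1 was the highest in 12 of 12, Con-FMT replicate 2 in 9 of 12, Con replicate 1 in 9 of 12 and A10 replicate 2 in 9 of 12. In A10-FMT the sums were 8.77, 2.91 and 2.24 RPKM, so the first library was above 2 of the 3 HS libraries. In Con-FMT they were 2.59, 5.13 and 3.12 RPKM, in A10 2.49, 3.39 and 2.70 RPKM and in HS+A10 3.33, 4.07 and 4.83 RPKM.

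Markers of some other cell types had their highest sums in the same libraries. In 6 of 6 groups the library with the highest mitotic sum also had the highest sum of the 7 macrophage markers. This was the highest count among the marker lists compared, and the count expected without a link was not computed. In HS the macrophage sums were 103, 67.0 and 112 RPKM, in A10-FMT 56.9, 48.5 and 44.9 RPKM and in Con-FMT 64.1, 99.1 and 51.0 RPKM. In Con they were 94.5, 62.8 and 84.3 RPKM, in A10 76.4, 107 and 95.1 RPKM and in HS+A10 109, 72.7 and 113 RPKM. Macrophage and mitotic sums had the same order of libraries in Con, A10 and A10-FMT. In Con and A10 the third library lay between the others in nearly all differing genes, so there the order rests on replicates 1 and 2. In HS and HS+A10 the order of replicates 1 and 2 was opposite, as was that of replicates 1 and 3 in Con-FMT. Between groups the order was not the same, since Con and A10 had macrophage sums near those of HS with lower mitotic sums.

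The same count was 5 of 6 groups for T and NK cell markers (sums of 0.87 to 3.71 RPKM), 4 for cholangiocytes (17.03 to 44.36 RPKM) and 3 each for endothelial cells, neutrophils with their precursors and erythroid cells. It was 2 for exocrine pancreas and 1 each for hepatocytes, stellate cells and B and plasma cells. All 7 macrophage markers were above 0 in every library. Among neutrophil precursors Camp was at 0 in all libraries of A10, HS+A10 and A10-FMT. The part of these cells in the mitotic values was not tested.

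The 2 transcription factors of the list were low. E2f1, which drives G1/S genes, had a mean of 0.909 RPKM and libraries between 0.51 and 1.65 RPKM. Foxm1, which drives G2/M genes, had a mean of 0.131 RPKM and its highest library at 0.31 RPKM. Both highest values belonged to HS replicate 3. Over all 35 members the mean of HS was above Con in 31 and below in 4, and above in 29 without HS replicate 3. The median change of all tested genes in this comparison was also above 0, at 0.14.

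Other genes of the pathway were taken from lists of 148 genes, of which 93 reached a mean of 1 RPKM. In HS compared to Con 13 were higher (14.0% of those tested, against 15.9% of all genes) and none lower, and in HS+A10 compared to A10 13 were higher (14.0%, against 13.6%) and 7 lower (7.53%, against 7.28%). In A10-FMT 3 were higher and 15 lower than in HS (16.1%, against 21.0%), and in Con-FMT 4 were higher and 23 lower (24.7%, against 19.0%). Whether these shares differ from those of all genes was not tested. Between A10-FMT and Con-FMT 7 were higher and 10 lower (18.3% called, against 18.8% of all genes). Between HS+A10 and HS 3 were higher and 2 lower (5.38% called, against 7.32% of all genes). Between A10 and Con none was called (against 0.0686% of all genes), although 13 had an unadjusted p under 0.05. The counts by list stand beside 15.9% of all genes higher in HS than Con and 19.0% lower in Con-FMT than HS. By list, 26 of the 42 other replication genes were tested, with 3 higher in HS than Con and 11 lower in Con-FMT than HS. Of the 37 other mitotic genes only 11 were tested, with 0 and 2. In the same order, 22 tested genes of the other cyclins and CDKs gave 3 and 3, 16 of the ubiquitin ligases gave 3 and 3, 11 of the E2F, DREAM and MYB factors gave 3 and 2, and 7 of the CDK inhibitors and pocket proteins gave 1 and 2.

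CDK inhibitors and related brakes included the largest of these changes. Cdkn1a encodes p21, a CDK inhibitor and target of p53. It had 11.26, 11.94 and 12.10 RPKM in Con, 34.90, 29.72 and 19.75 RPKM in HS, and 3.82, 2.89 and 3.57 RPKM in A10-FMT. HS was above Con (1.15, adjusted p = 0.0193), and A10-FMT was below HS by 2.69 (adjusted p = 0.000185) and below Con-FMT (30.44, 17.30 and 12.31 RPKM) by 2.16 (adjusted p = 0.000322). HS+A10 had 8.41, 17.91 and 10.96 RPKM, also below HS (-1.14, adjusted p = 0.0367).

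Ccng1, cyclin G1 and another p53 target, had 9.25 to 10.12 RPKM in Con, 8.05 to 10.40 in A10, 19.66 to 22.36 in HS, 21.92 to 27.42 in HS+A10, 12.23 to 15.79 in A10-FMT, while Con-FMT had 20.02 to 21.50 RPKM. It rose by 1.04 in HS compared to Con (adjusted p = 4.37e-05) and by 1.34 in HS+A10 compared to A10 (adjusted p = 4.37e-06). A10-FMT was below HS by 0.58 (adjusted p = 0.0024) and below Con-FMT by 0.54 (adjusted p = 0.00306). Ccnd1, in contrast, was below HS in both recipient groups.

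Wee1, the kinase that restrains CDK1 and a known output of the circadian clock, followed a different division of the groups. It had 0.50 to 1.25 RPKM over the 9 libraries of Con, A10 and HS, and 2.45 to 6.97 RPKM in HS+A10, 4.22 to 5.55 in A10-FMT, while Con-FMT had 1.22 to 3.13 RPKM. HS+A10 was above A10 by 1.68 (adjusted p = 0.000423) and A10-FMT was above HS by 1.62 (adjusted p = 0.000953). Dbp, a clock output gene, was at 0.36 to 3.41 RPKM in the first 9 libraries and at 47.26 to 98.80 RPKM in the other 9. The part of the clock in the differences between these groups, those of the members included, was not tested.

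Replication genes outside the members moved in both directions. Mcm10, an initiation factor, had group means of 13.8 RPKM in Con and A10, 16.4 in HS, 26.1 in HS+A10, 36.0 in A10-FMT and 52.2 in Con-FMT, unlike the Mcm2 to Mcm7 genes of the helicase. It was above HS by 1.07 in A10-FMT (adjusted p = 0.0042) and by 1.55 in Con-FMT (adjusted p = 0.000248). Tk1, thymidine kinase, was above HS in A10-FMT (1.14, adjusted p = 0.00675), and Prim1, a primase subunit, was below it (-0.64, adjusted p = 0.00187).

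Cks2, a small partner of CDKs, had 29.52 to 31.26 RPKM in HS, 20.06 to 22.37 RPKM in A10-FMT, while Con-FMT had 12.96 to 17.22 RPKM. It was the most significant of the listed genes lower in Con-FMT than HS (-1.0, adjusted p = 5.07e-05), followed by Anapc4 of the anaphase-promoting complex (-0.65, adjusted p = 0.00065) and Pola2 of the primase complex (-0.65, adjusted p = 0.000872). Ccnl1 (0.60, adjusted p = 0.00452) and Lin52 (0.43, adjusted p = 0.0434) were higher there. Pola2 (0.72, adjusted p = 0.000579), Tfdp2 (0.48, adjusted p = 0.00184) and Cks2 (0.49, adjusted p = 0.00759) were higher in A10-FMT than Con-FMT. In the comparisons of diet and STZ, Tfdp1, the dimer partner of E2F, rose by 0.34 in HS (adjusted p = 0.00639) and by 0.37 in HS+A10 (adjusted p = 0.00217).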

How the data were processed

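RNA-seq was run on oligo(dT)-selected liver RNA of 18 mouse libraries. The authors mapped the reads and deposited gene levels as RPKM with 2 decimals. The study's methods name SOAPaligner, whereas the submitters' processing notes name Bowtie 0.12.2 and mm10, and which made the table is not settled. Use of strand is not given in the sources used here. The number of reads per library is unknown, so no counting interval is given, and RPKM sums were 692818 to 806937. Values were used as deposited. For 26 genes the table gives a date as symbol.

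In R 4.3.3 with limma 3.58.1, log2(RPKM + 1) was fitted with 1 mean per group over all 18 libraries and a variance trend, keeping 10204 genes whose mean was 1 RPKM or more. Tests are two-sided, with Benjamini-Hochberg adjustment over all of these genes, and a gene is called at an adjusted p under 0.05. A fold on this scale understates the change of low genes. With 3 libraries on each side, the exact permutation p of a single gene (two-sided) is 0.1 at the least, reached where groups do not overlap. DEGseq, the test of the study, takes no account of spread between replicates and was not used. No 2 libraries were identical (0 pairs), and the fit was tested on simulated data. Gene positions and exon overlaps came from GENCODE on GRCm38, and promoters from RefSeq (Python 3.11.15).

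Members with a mean of at least 1 RPKM are named with library values or ranges where called or past the F test. So are the D-type and E-type cyclins, Cdk1, Cdk4, Pcna, Mki67 and Top2a. Cdc20, Birc5 and LTO1, Bysl, Tspan31, Ap4m1 and Cops6 were added after their values were seen. Of the other pathway genes, at most the 3 with the smallest adjusted p per direction and comparison are named. The members and lists were chosen with earlier results of these data known. Alternatives were another pseudocount (0.1), other filters, scalings, sets of libraries, the replicate block and each library left out.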

Additional observations from a re-analysis of the deposited data

How the results depend on the processing

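Among 24 calls of a member in a comparison, none turned its direction in 724 alternatives, and 134 of these lost the call. With the limits of the paper (adjusted p of at most 0.001 and a change of at least 1) 0 members were called in any comparison and 3 by the F test. With a mean of at least 5 RPKM, which leaves 5 members to test, the counts were 2 in HS vs Con, 2 in HS+A10 vs A10, 3 in A10-FMT vs HS, 2 in Con-FMT vs HS, 1 in A10-FMT vs Con-FMT and 3 by the F test. Fitting only the compared groups gave 2 in HS vs Con, 0 in HS+A10 vs HS, 3 in A10-FMT vs HS and 1 in A10-FMT vs Con-FMT, and fitting the 12 libraries of the paper's groups gave 2 in HS vs Con. HS+A10 vs HS gave 0 with no filter, with median scaling and with every library scaled to the same sum, and A10-FMT vs HS gave 4 with median scaling. Without the third Con and A10 libraries, a choice made after seeing the data, HS vs Con gave 2 and HS+A10 vs HS 0. The same with no filter gave 2, 0, 1 in HS+A10 vs A10, 4 in A10-FMT vs HS and 1 in A10-FMT vs Con-FMT.

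Leaving out each library in turn gave 2 to 4 in HS vs Con (2 without Con replicate 3 or HS replicate 3), 2 to 5 in HS+A10 vs A10 (2 without A10 replicate 2), 0 to 1 in HS+A10 vs HS, 3 to 8 in A10-FMT vs HS (3 without HS replicate 3 or A10-FMT replicate 2), 5 to 7 in Con-FMT vs HS, 2 to 4 in A10-FMT vs Con-FMT, 7 to 10 by the F test and 0 in A10 vs Con and for the interaction. In HS+A10 vs HS the call was lost in the fits without any one of 12 libraries. With the replicate number as a block the counts were 3, 4, 1, 7, 5 and 3 in HS vs Con, HS+A10 vs A10, HS+A10 vs HS, A10-FMT vs HS, Con-FMT vs HS and A10-FMT vs Con-FMT, and 9 by the F test. Of 45 same-numbered pairs 12 had a correlation above 0.1 (range -0.126 to 0.262), and 21 of 45 correlated best with their own number. Among HS, HS+A10 and A10-FMT, replicates 1 and 3 did so in every pairing, with correlations of 0.134 to 0.262. Whether the numbers pair the libraries in part of the groups was not tested. Unless stated, the cause of a lost call was not tested. Levels under 1 RPKM rest on an unknown number of reads, which limits the mitotic genes most.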
